A study of Mus musculus with 12 samples.

Results

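The opioid peptides and receptors of the mouse hypothalamus were followed through 7 genes: the 3 precursor genes Penk1 (now named Penk), Pdyn and Pnoc, and the 4 receptor genes Oprm1, Oprd1, Oprk1 and Oprl1. Every non-control probe whose gene name in the array files equaled one of these names was taken, which gave 12 of 41174 probes, 5 for precursors and 7 for receptors. RNA came from the hypothalamus of male ICR mice, an outbred strain, on 12 Agilent 1-color arrays. From 3 weeks of age the mice adapted to drinking tubes with water on days 1 to 5, after which alcohol mice chose freely between water and a 5% or 10% alcohol solution, and water-only control mice had water in both tubes. The text of the study ends the drinking on day 57, the sample labels on day 51. Each array carried RNA pooled from several mice or, for some alcohol arrays, from 1 mouse: 9 water-only mice made 3 pools, and 19 alcohol mice made 9 pools of 1 to 3. By the labels, 3 alcohol arrays are from low drinkers, 3 from early high drinkers and 3 from late high drinkers. The study lists 3 mice for each pool of less alcohol consumption and fewer than 3 for each pool of more. Pool size thus varied with intake, and its part in high against low drinkers was not tested. The labels do not tie the arrays to pool names, so the mix of 5% and 10% alcohol mice on an array was not used here. Replicates are therefore pools, and p-values measure the spread between pools.

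Opioid peptides are cut from large precursor proteins: proenkephalin (Penk1) gives the enkephalins, prodynorphin (Pdyn) the dynorphins, and prepronociceptin (Pnoc) nociceptin. They act on receptors coupled to inhibitory G proteins, which lower the activity of the neurons that carry them. Enkephalins act mainly at the delta (Oprd1) and mu (Oprm1) receptors, dynorphins at the kappa receptor (Oprk1) and nociceptin at the nociceptin receptor (Oprl1). In the hypothalamus they take part in feeding, stress, fluid balance and reproduction, and the mu receptor is the target of naltrexone, a drug used against alcohol dependence.

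The results turn on genes with probes at separate places along the same transcript. Penk1, Pnoc and Oprl1 each had an upstream probe and a downstream probe nearer the 3′ end, and the upstream probes are shown because those of Penk1 and Oprl1 read lowest in the late high drinkers. Each is 60 bases long, written 5′ to 3′ as in the array files. In the Penk1 probe the capitals mark an 18-base run that occurs in 2 copies, and 1 of 41174 probes on the array held this run on either strand, that is the Penk1 probe itself.
Penk1 upstream probe: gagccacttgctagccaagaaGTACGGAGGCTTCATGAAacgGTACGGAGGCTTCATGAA
Oprl1 upstream probe: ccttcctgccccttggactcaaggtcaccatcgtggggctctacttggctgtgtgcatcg
Pnoc upstream probe: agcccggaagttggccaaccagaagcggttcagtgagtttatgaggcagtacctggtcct
Proenkephalin is known to hold several copies of Met-enkephalin, so repeats are usual in its transcript. Positions are those of mm9 in the array files. The Penk1 probe (A_52_P286166) lies at chr4:4061458-4061517 on the minus strand, 577 bases into the transcript record, and its downstream partner (A_51_P102987) at chr4:4060735-4060794, 1300 bases in. The Oprl1 probe (A_52_P297290) lies at chr2:181450549-181450608 on the plus strand, 340 bases in, and its partner (A_52_P99678) at chr2:181455275-181455334, 2555 bases in. The Pnoc probe (A_52_P425416) lies at chr14:66023641-66023700 on the minus strand, 545 bases in, and its partner (A_51_P450469) at chr14:66020505-66020564, 839 bases in. Of the 12 probes, 9 target a record that the RefSeq gene table pairs with the member gene. Those without such a match were the single Pdyn probe (A_52_P586928) and the Oprm1 probes A_51_P118688 and A_52_P498441. Boundaries of exons and coding regions were not used here.

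The level of a probe is the log2 of its deposited signal intensity over the 75th percentile of the array, so that 0 is that percentile and a step of 1 is a doubling. Levels of different probes are not compared, because probes bind with different strength. The 75th percentile was 1512 to 1853 intensity units, 67.0% to 79.3% of spots per array stood well above background, and 0 were saturated. All 3 water arrays shared slide 1 with low drinker 1. Low drinkers 2 and 3 and early high drinkers 1 and 2 were on slide 2, and early high drinker 3 and all late high drinkers on slide 3. The scan of slide 1 was on another day than that of the others, so water and alcohol can be compared within a slide through low drinker 1 alone. Of 10 hypothalamic marker genes 9 were on the array by name, and 8 of these were well above background on all 12 arrays. Among the members, 9 of 12 probes were well above background on every array, and 11 passed the filter on dim spots and were tested with limma. In a bulk sample, fewer cells of a type and less RNA per cell cannot be told apart.

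Among the precursors, the downstream Penk1 probe varied little. Its level was 5.12, 5.01 and 4.95 in the water arrays, 5.07, 4.99 and 4.97 in the low drinkers, 5.05, 5.00 and 4.91 in the early high drinkers and 4.89, 4.93 and 4.90 in the late high drinkers. The late high drinkers had the lowest mean, 4.91 ± 0.02 (SD, n = 3), but their arrays overlapped with those of the early high drinkers, and no neighbors above them in the order water, low, early high differed by more than their pooled SD.

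At the upstream Penk1 probe the late high drinkers stood apart. The water arrays had levels of 0.63, 0.62 and 0.75, the low drinkers 0.58, 0.70 and 0.43, the early high drinkers 0.69, 0.63 and 0.49, and the late high drinkers 0.06, 0.05 and 0.41. All 3 late high drinkers lay below the other 9 arrays, late high drinkers 1 and 2 by far and number 3 closely under low drinker 3. Late minus early high drinkers was -0.43 (SE 0.11, 95% interval -0.68 to -0.18), or 0.741 times the early level, with an unadjusted p of 0.00331 and an adjusted p of 0.324 in limma. The exact 2-sided permutation test gave p = 0.1, the smallest that 3 against 3 arrays allow. On slide 3 alone, late minus early was -0.32, with early high drinker 3 as the single early array, and at the downstream probe it was -0.00. With slide as a fixed block the unadjusted p of the upstream probe was 0.0928, and without scaling its difference was -0.28, not past an unadjusted p of 0.05 either.

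Pdyn had 1 probe (A_52_P586928, chr2:129512323-129512382, minus strand). Its levels were 3.57, 3.64 and 3.63 in water arrays, 3.65, 3.57 and 3.57 in low drinkers, 3.59, 3.50 and 3.40 in early high drinkers and 3.51, 3.51 and 3.33 in late high drinkers. From highest to lowest mean the order was water, low, early high and late high, and of the 3 steps that from low to early high, 0.10, was the one above the pooled SD of its neighbors, 0.08. All 4 groups overlapped with their neighbors. High minus low drinkers was -0.12 (SE 0.06, 95% interval -0.26 to 0.01, limma unadjusted p = 0.0724).

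Both Pnoc probes stayed level. The downstream probe read 3.06, 2.92 and 2.88 in water arrays, 2.90, 3.01 and 2.90 in low drinkers, 3.05, 2.93 and 2.94 in early high drinkers and 3.00, 3.08 and 2.91 in late high drinkers. The upstream probe read 0.85, 0.81 and 0.64 in water arrays, 0.74, 0.85 and 0.91 in low drinkers, 0.84, 0.60 and 0.87 in early high drinkers and 0.90, 0.77 and 0.80 in late high drinkers. Every group overlapped with every neighbor, and no step between neighboring means exceeded the pooled SD. For alcohol against water the 95% interval was -0.11 to 0.14 at the downstream probe and -0.11 to 0.19 at the upstream probe.

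Among the receptors, Oprk1 had the narrowest range. Its probe (A_51_P377528, chr1:5592825-5592884, plus strand) read -0.23, -0.18 and -0.18 in water arrays, -0.20, -0.10 and -0.21 in low drinkers, -0.22, -0.13 and -0.24 in early high drinkers and -0.28, -0.21 and -0.22 in late high drinkers. All groups overlapped with their neighbors, and alcohol minus water had a 95% interval of -0.10 to 0.10.

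Oprl1, the nociceptin receptor, differed between its probes. The downstream probe read 2.76, 2.83 and 2.74 in water arrays, 2.73, 2.75 and 2.42 in low drinkers, 2.75, 2.73 and 2.61 in early high drinkers and 2.72, 2.75 and 2.84 in late high drinkers, with overlap between all neighbors. At the upstream probe the water arrays read -2.08, -1.95 and -1.97, the low drinkers -1.94, -1.83 and -2.02, the early high drinkers -1.96, -1.97 and -2.19, and the late high drinkers -2.52, -2.67 and -2.41. The late high drinkers were again below all other arrays, and the other 3 groups overlapped. Late minus early high drinkers was -0.50 (SE 0.09, 95% interval -0.70 to -0.29), or 0.709 times the early level, with an unadjusted p of 0.000343 and an adjusted p of 0.324 in limma, and exact permutation p = 0.1. Within slide 3 the difference was -0.35. High minus low drinkers was -0.36 (SE 0.08, limma unadjusted p = 0.00124, adjusted p = 0.108, exact permutation p = 0.0833). All 6 high drinkers were below the low drinker mean but overlapped with single low drinkers. Within slide 2 early high minus low drinkers was -0.04. Over the alternatives high minus low ran from -0.36 to -0.21, and not all of them kept an unadjusted p under 0.05.

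Oprm1, the mu receptor, was read by 3 dim probes that target different transcript records. The brightest (A_51_P118688, whose 60 bases span chr10:3557952-3587890 on the minus strand) was well above background on all 12 arrays. It read -4.73, -4.68 and -4.59 in water arrays, -5.02, -2.58 and -3.33 in low drinkers, -3.77, -4.02 and -4.47 in early high drinkers and -4.51, -4.27 and -5.09 in late high drinkers. Low drinkers 2 and 3 were highest and low drinker 1 was among the lowest, so that the low drinkers alone spanned nearly the whole range (SD 1.25). None of the 3 comparisons reached an unadjusted p under 0.05 in limma at this probe.

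The probe A_52_P498441 (chr10:3309054-3309112, minus strand) passed the scanner's test for a signal well above background on 6 of the 9 alcohol arrays, 2 per drinker group, and on 0 of 3 water arrays. It read -6.64, -6.00 and -6.31 in water arrays, -5.07, -3.57 and -4.84 in low drinkers, -5.55, -5.46 and -5.76 in early high drinkers and -5.87, -5.84 and -5.90 in late high drinkers. The 4 groups did not overlap, in the order low, early high, late high and water. Alcohol minus water was 1.00 (95% interval 0.07 to 1.93), or 2.0-fold at the measured means (limma unadjusted p = 0.0377, adjusted p = 0.819, exact permutation p = 0.0545). This ratio is not secure, because no water array was well above background. The difference ran from 0.33, with the normexp background correction, to 1.25 over the alternatives, and was 0.78 without low drinker 2. High minus low drinkers was -1.24 (SE 0.29, limma unadjusted p = 0.00166, adjusted p = 0.119; exact permutation p = 0.0119, the smallest possible). Within slide 1, low drinker 1 lay 1.25 above the mean of the water arrays, and within slide 2 early high minus low drinkers was -1.30. Without water 1, water 3, low drinker 1 or low drinker 3, the difference between alcohol and water no longer had an unadjusted p under 0.05.

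The third Oprm1 probe (A_51_P100309, chr10:3516154-3516213, minus strand) was well above background on 7 of 12 arrays and on none of the 3 low drinkers. Its levels ran from -5.58 to -4.71 with overlap between all neighbors. Alcohol minus water was -0.04 and late minus early 0.11. No order is given for high and low drinkers, since low drinkers had no array well above background, the 95% interval of the ratio of high to low was 0.768 to 1.41 and the sign turned under several alternatives. The Oprd1 probe (A_52_P7379, chr4:131667387-131667446, minus strand), for the delta receptor, was well above background on 0 of 12 arrays and was not tested. Its measured signal was -5.21 in low drinker 2 and between -8.47 and -6.81 in the others, and 1 value, that of low drinker 2, passed the filter on dim spots.

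Dim probes as a class were raised on low drinkers 2 and 3, the arrays in which the Oprm1 probes A_51_P118688 and A_52_P498441 read highest, while A_51_P100309 was highest in late high drinker 3. Over the 6369 probes that were not well above background on any array, the median level relative to the water mean was 1.20 in low drinker 2, 1.13 in low drinker 3 and 0.89 in early high drinker 1, against -0.49 to 0.29 in the other 9 arrays. Those 3 arrays were on slide 2, whose remaining array, early high drinker 2, read -0.29. Over the 4438 probes with a mean level within the range of the 3 Oprm1 probes, the median was 0.87 in low drinker 2, 0.27 in low drinker 3 and 0.30 in early high drinker 2, against -0.08 to 0.13 in the others. Over the 26040 probes well above background on all arrays it stayed between -0.01 and 0.05. The part of this shift in the Oprm1 differences was not tested.

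**Figure D1:**
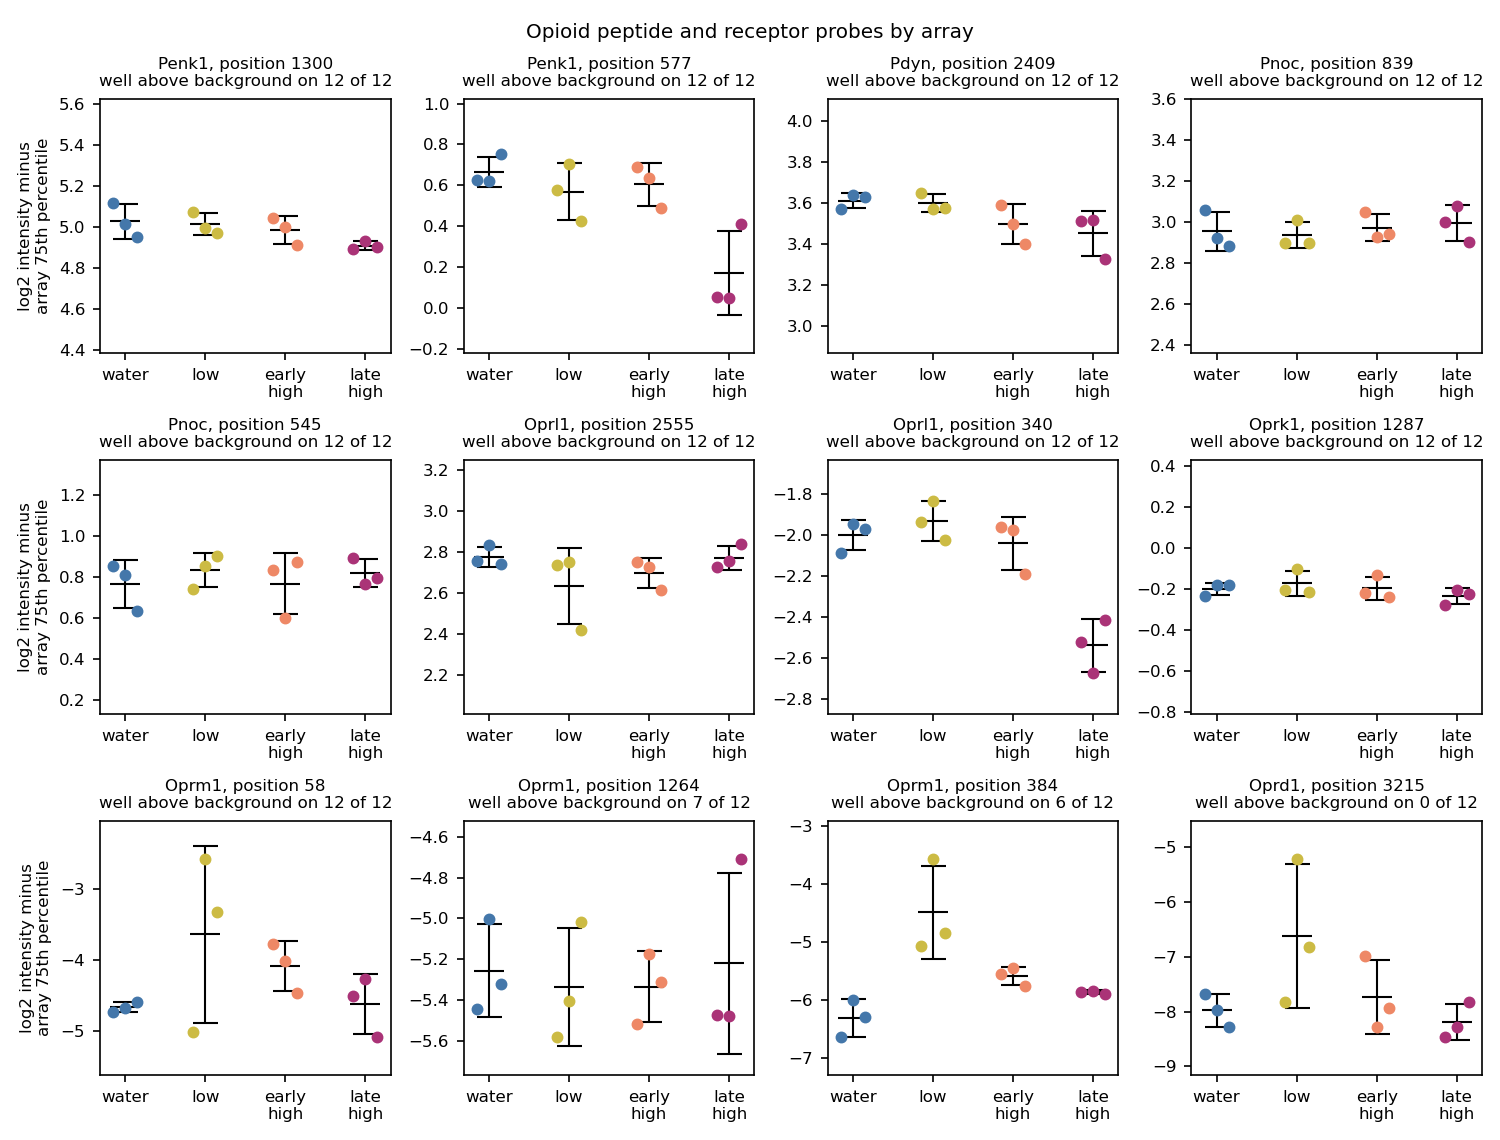
Level (log2 intensity minus the 75th percentile of the array, vertical axis) of the 12 opioid probes in the 4 groups, 1 point per array, with black bars for the mean and SD of 3 arrays; panel titles give the gene and the position of the probe in its transcript record. The 3 late high drinkers lie below all other arrays at Penk1 position 577 and Oprl1 position 340, and low drinker 2 is highest at Oprm1 position 384.

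Set side by side, few opioid probes differed between alcohol and water. Of 11 probes 1 had an unadjusted p under 0.05 in limma, the Oprm1 probe A_52_P498441, and it was higher in alcohol; over all probes tested 3.85% were higher and 1.68% lower at this threshold, 5.53% in all. The same probe was the 1 member with every alcohol array above every water array, where 0.982% of 29521 probes with values on all arrays were so placed. Adjusted p-values in limma left 0 of the members and 0 of all 32376 probes under 0.05. The median difference of the members was -0.04, against 0.03 over all probes. At the downstream Penk1 probe alcohol minus water was -0.06 (95% interval -0.18 to 0.06), at the upstream one -0.22 (-0.53 to 0.09), and for Pdyn -0.10 (-0.24 to 0.05). At the bright Oprl1 probe the interval was -0.24 to 0.09.

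High and low drinkers differed at 2 of 11 probes at an unadjusted p under 0.05 in limma, upstream Oprl1 and Oprm1 A_52_P498441, both lower in high drinkers; over all probes tested 12.2% were lower and 3.3% higher at this threshold, 15.5% in all. All 6 high drinkers were below all 3 low drinkers at 1 member, Oprm1 A_52_P498441, against 2.95% of probes, while 0 members and 1.66% of probes lay the other way. At upstream Oprl1 the early high drinkers overlapped with the low drinkers, and the late high drinkers lay below both. No member passed an adjusted p of 0.05 in limma (smallest 0.108), which 0.0744% of all probes did. Without low drinker 1, the 2 Oprm1 probes A_51_P118688 and A_52_P498441 passed it, with differences of -1.40 and -1.52 and an adjusted p of 0.0201 each, as did 2505 of 31195 probes in that fit. Without low drinker 2, where dim probes were raised, the same differences were -0.18 and -0.77, and neither passed. The median difference was -0.07 over the members and -0.06 over all probes.

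Late and early high drinkers differed at 2 of 11 probes at an unadjusted p under 0.05 in limma, the upstream probes of Penk1 and Oprl1, both lower in late high drinkers, against 8.0% lower, 4.14% higher and 12.1% in all over the probes tested. With slide as a fixed block, which compares within slide 3, or without scaling, Penk1 was no longer past this threshold and Oprl1 was. Groups did not overlap at these 2 and at Oprm1 A_52_P498441, with every late array lower; 13.0% of all probes were placed that way and 8.46% the other way. No member passed an adjusted p of 0.05 (smallest 0.324 in limma), and of 33141 probes tested 0 did. Without early high drinker 3, upstream Oprl1 passed, with -0.57 and an adjusted p of 0.0366, as did 194 of 30959 probes. The median difference was -0.05 over the members and -0.03 over all probes. The shares of members past each threshold rest on 11 probes, several of them to the same gene, and are not read as a property of the opioid genes.

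**Figure D2:**
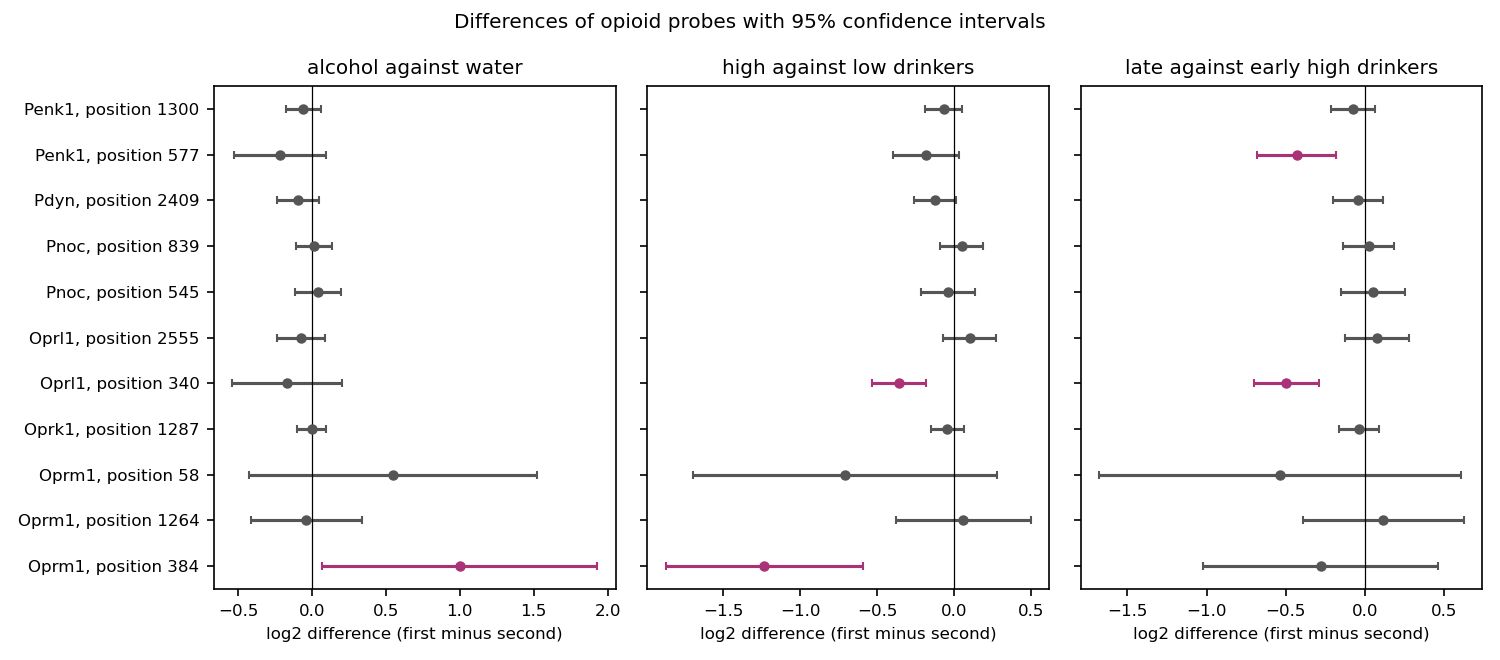
Difference in level (log2, first group minus second, horizontal axis) with its 95% confidence interval from limma for the 11 opioid probes tested, 1 panel per comparison; colored points have an unadjusted p under 0.05. Oprm1 position 384 is colored for alcohol against water, Oprl1 position 340 and Oprm1 position 384 for high against low drinkers, and Penk1 position 577 and Oprl1 position 340 for late against early high drinkers.

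For Penk1 and Oprl1 the upstream and downstream probes of the same transcript were set against each other within each array. This comparison was chosen after their values had been seen. In both genes, and in Pnoc, the upstream probe also had the lower signal and more G and C bases. These made up 51.7%, 60% and 55% of the upstream probes of Penk1, Oprl1 and Pnoc, against 38.3%, 41.7% and 40% downstream. The part of signal and base content in the values below was not tested. The upstream minus downstream difference was taken relative to the mean of the water arrays. For Penk1 it was -0.47, -0.52 and -0.13 in the late high drinkers, and between -0.18 and 0.16 in the other 9 arrays. For Oprl1 it was -0.47, -0.65 and -0.48 in the late high drinkers, and between -0.06 and 0.33 in the others. All late arrays of Oprl1 and 2 of 3 of Penk1 were thus below every other array. For Pnoc the late high drinkers read 0.08, -0.12 and 0.08, inside the range of the others.

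The same direction was present across the array to a smaller extent. On 4141 pairs of probes to the same transcript record, at least 200 bases apart and well above background on all arrays, the difference between late and early high drinkers at the upstream probe minus that at the downstream probe had a median of -0.09 (quartiles -0.21 to 0.02), and 70.1% of pairs were below 0. The value was -0.35 for Penk1, which 9.88% of pairs were below, and -0.57 for Oprl1, which 2.39% were below, with Pnoc at 0.03. By array the median over pairs was -0.06, -0.06 and -0.00 in the late high drinkers, 0.03, 0.06 and 0.03 in the early high drinkers, -0.03, 0.12 and 0.04 in the low drinkers and -0.06, 0.02 and 0.04 in the water arrays, so that water 1 was as low as the late high drinkers. The exact permutation test of late against early gave p = 0.1 for both Penk1 and Oprl1. For high against low drinkers, Oprl1 had -0.46 (exact permutation p = 0.0238, or 0.214 adjusted over the 9 such tests) against a median of -0.06. RNA integrity per pool was not used here, and its part in these differences was not tested.

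**Figure D3:**
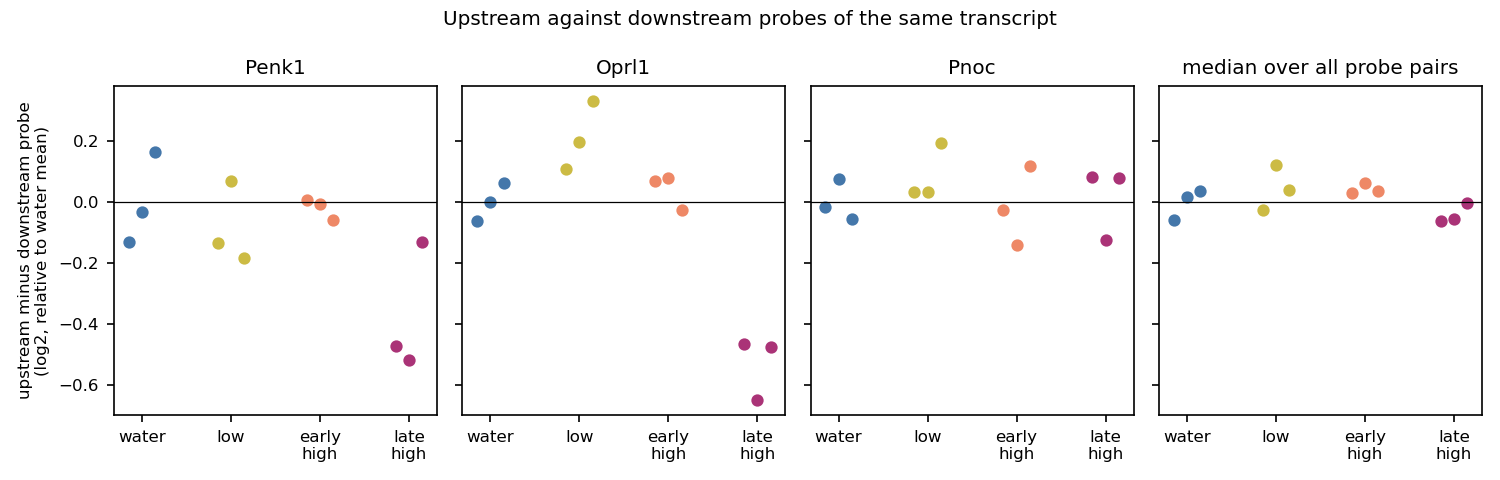
Upstream minus downstream probe of the same transcript (log2, relative to the mean of the 3 water arrays, vertical axis), 1 point per array, for Penk1, Oprl1 and Pnoc and as the median over 4141 probe pairs. Late high drinkers read -0.47, -0.65 and -0.48 for Oprl1 and between -0.06 and -0.00 for the median pair.

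Penk1 and Pdyn are also made strongly in the striatum, which lies near the hypothalamus, so striatal markers were read beside them. All 8 were on the array and 7 were well above background on all 12 arrays, the eighth, Gpr6, on 10. Between late and early high drinkers 3 of 8 were lower at an unadjusted p under 0.05 in limma and 0 higher, beside 8.0% of all probes lower, among them the dopamine receptor Drd2 (-0.30) and the adenosine receptor Adora2a (-0.33), and the list had a median of -0.21 against -0.03 over all probes. The log2 of the summed intensity of the list was 2.42 to 2.52 in water arrays, 2.46 to 2.49 in low drinkers, 2.30 to 2.55 in early high drinkers and 2.26 to 2.33 in late high drinkers. Of the others Drd1 read -0.05, Rgs9 0.03, Pde10a 0.15, Ppp1r1b -0.45 and Gpr6 -0.16, none past the threshold. The downstream Penk1 probe and Pdyn had -0.08 and -0.05 in the same comparison. Of the other tissues, thalamic markers had a median of 0.49 between late and early high drinkers, with 1 of 7 higher. Pituitary markers had 0.48 with 2 of 6 higher, beside 4.14% of all probes higher. Cortical and hippocampal markers had 0.06 with 0 of 5 past the threshold, and choroid plexus markers 0.01 with 1 of 5 lower. The part of neighboring tissue in the Penk1 values was not tested.

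Around the members, 36 genes that make, cut or transmit opioid peptides were all on the array and tested, each by its brightest probe. Between alcohol and water 2 of 36 were higher and 0 lower at an unadjusted p under 0.05 in limma, beside the 5.53% of all probes given above. High against low drinkers gave 2 higher and 3 lower, and late against early 1 higher and 6 lower, beside 15.5% and 12.1%. The genes higher in alcohol than in water were Cpe, carboxypeptidase E, which trims peptides after cleavage (0.10, SE 0.05), and Anpep, an aminopeptidase that breaks enkephalins down (0.23, SE 0.08). A further Cpe probe gave 0.02. In the fit of all arrays without blocks, no list gene passed an adjusted p of 0.05 in any of the 3 comparisons.

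In the 6 genes of peptide processing the convertases Pcsk1 and Pcsk2, which cut the precursors, differed by -0.05 to 0.12 in all 3 comparisons at their brightest probes. A further Pcsk1 probe gave -0.09, -0.17 and -0.27, none past the threshold. Pcsk1n, the inhibitor named for Pcsk1, differed by -0.15 (SE 0.09) between late and early, with -0.10 and 0.08 at its further probes. A further Pcsk1n probe gave 0.24 for alcohol against water (unadjusted p = 0.0213 in limma), where the brightest gave 0.05. The median of the list was 0.08 for alcohol against water, -0.02 for high against low and -0.01 for late against early, beside 0.03, -0.06 and -0.03 over all probes.

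In the 6 genes of peptide breakdown, 0 were higher and 2 lower in high than in low drinkers, and 0 higher and 3 lower in late than in early high drinkers, beside 12.2% and 8.0% of all probes lower in these comparisons. Ece2, an endothelin-converting enzyme that also cuts opioid peptides, differed by -0.19 (SE 0.07) and -0.33 (SE 0.08), and Ace, the angiotensin-converting enzyme, by -0.23 (SE 0.07) and -0.20 (SE 0.08). Mme, neprilysin, the main enkephalin-degrading endopeptidase, differed by -0.24 (SE 0.10) between late and early. Of the further probes, those for Ece2 gave 0.06 and -0.27 between late and early and that for Mme -0.07, while the further Ace probe tested gave -0.38. Between high and low drinkers the further Ace probe gave -0.06 and those of Ece2 -0.06 and -0.14, none past the threshold. List medians were -0.09 and -0.17 in these comparisons, and 0.01 for alcohol against water.

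Among the 9 G protein and potassium channel genes that carry the receptor signal, Gnai1 was higher in high than in low drinkers (0.27, SE 0.06, unadjusted p = 0.00186 in limma). Its probes disagreed, with 0.21 and 0.11 at the next ones and -0.28 at another, so no direction is given for the gene. Between late and early high drinkers Gnai2 differed by -0.23 (SE 0.07) and Gnao1 by -0.13 (SE 0.05), both inhibitory G protein subunits, and the list median was -0.06. For Gnao1 this turned to 0.03 when arrays were not scaled. Without scaling the median over all probes was 0.12 between late and early and 0.07 between high and low, in place of -0.03 and -0.06.

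Among 6 genes of receptor desensitization, Grk2, the kinase that phosphorylates active receptors, was higher by 0.29 (SE 0.09) in high than in low drinkers and by 0.31 (SE 0.11) in late than in early. Its further probes gave -0.04 and -0.08 between high and low, and 0.07 and 0.02 between late and early. Without low drinker 1, Grk2 (0.40, adjusted p = 0.0305) and Ace (-0.29, adjusted p = 0.0419) passed an adjusted p of 0.05 in limma for high against low drinkers, where 2505 of 31195 probes passed. The arrestins Arrb1 and Arrb2 differed by -0.03 to 0.08 in the 3 comparisons at their brightest probes, while a further Arrb1 probe gave -0.17 for alcohol against water (unadjusted p = 0.0191 in limma), -0.07 and -0.12.

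Of 4 genes named for opioids but outside the receptor family, or repressing Pdyn, 1 differed: Opcml, an opioid-binding cell adhesion protein, by -0.55 (SE 0.18, unadjusted p = 0.0135 in limma) between late and early. The Pdyn repressor Kcnip3 gave 0.12, 0.04 and -0.08 in the 3 comparisons. Of 4 peptides made in the same hypothalamic neurons as dynorphin, Kiss1, kisspeptin, was lower in high than in low drinkers (-0.39, SE 0.14), while vasopressin (Avp), orexin (Hcrt) and neurokinin B (Tac2) did not pass in any comparison.

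**Figure D4:**
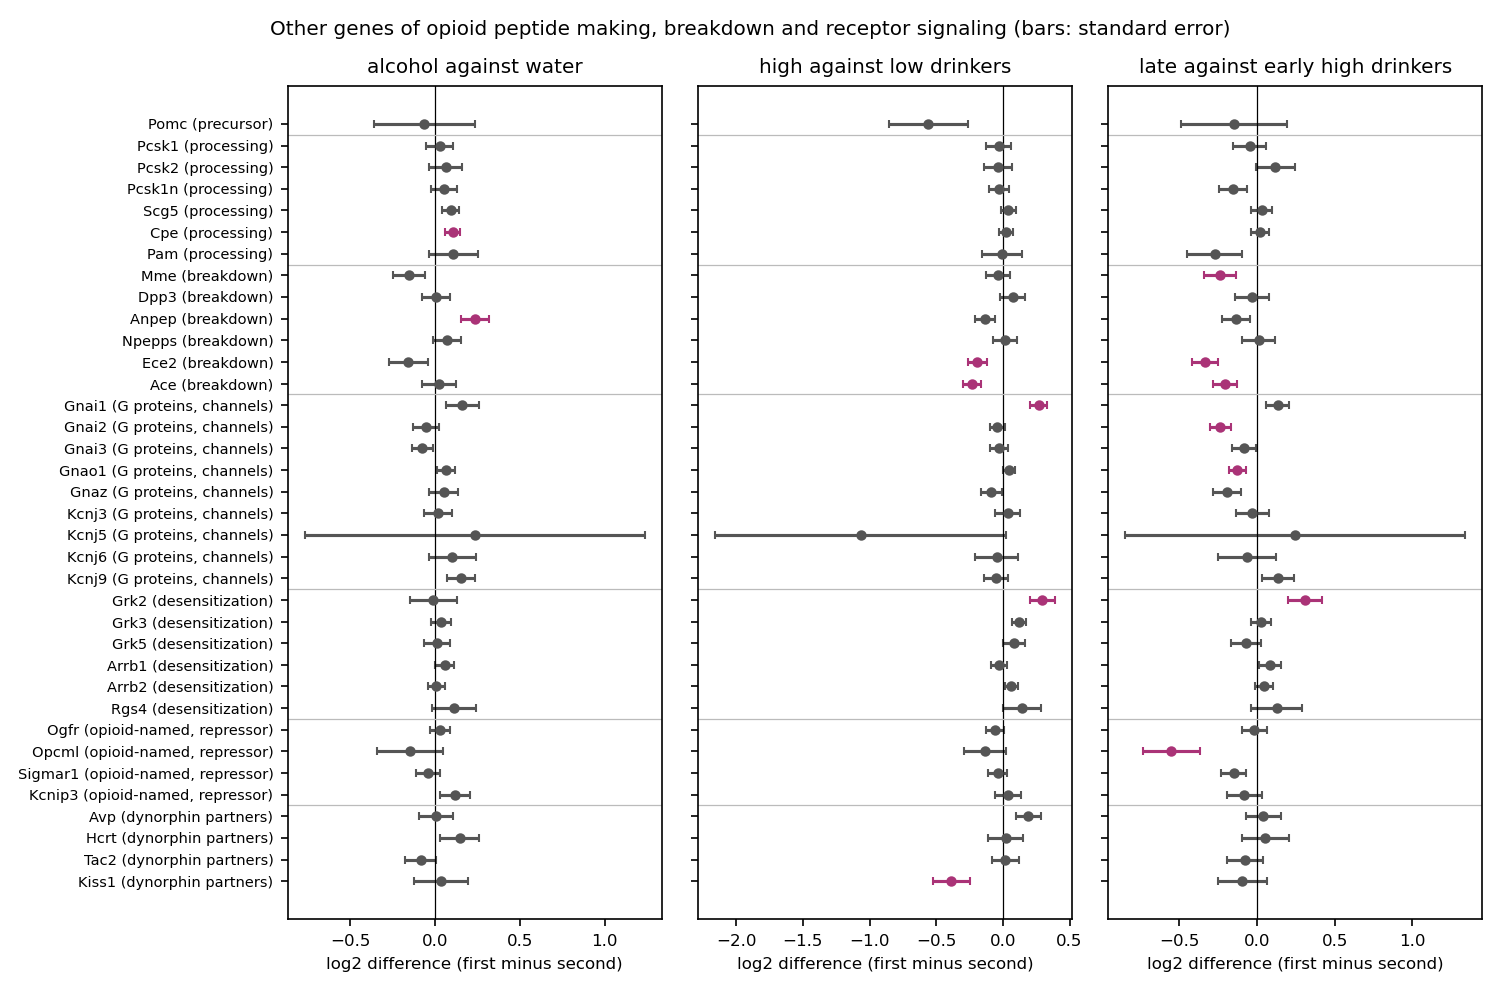
Difference in level (log2, first group minus second, horizontal axis) with its standard error for the brightest probe of 36 genes around the opioid system, in 3 comparisons, with gray lines between lists; colored points have an unadjusted p under 0.05 in limma. The colored points are Cpe and Anpep for alcohol against water, 5 genes for high against low drinkers and 7 genes for late against early, 6 of them lower.

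Pomc, the precursor of beta-endorphin, was set by 1 array. It read 3.71, 3.73 and 3.60 in water arrays, 5.01, 3.47 and 3.49 in low drinkers, 3.68, 3.45 and 3.38 in early high drinkers and 3.44, 3.36 and 3.27 in late high drinkers. Low drinker 1 stood far above the other 11 arrays. High minus low drinkers was -0.56 (SE 0.29, unadjusted p = 0.0872 in limma), and without low drinker 1 it was -0.05. Alcohol minus water was -0.06 (SE 0.30), and without low drinker 1 it was -0.24. With each array left out in turn, its smallest unadjusted p in limma was 0.0117 (smallest adjusted p = 0.498). In the fit with slide as a block, which leaves low drinker 1 against water, alcohol minus water was 1.33, a value that rests on this 1 array. Pomc is also made in the pituitary, and 2 of its 6 measured markers were highest on that array: growth hormone (Gh) read -0.93 in low drinker 1 and -8.30 to -3.98 in the others, and prolactin (Prl) 0.36 against -8.21 to -0.71. The other 4 pituitary markers measured, Cga, Lhb, Tshb and Fshb, were not highest there, and Cga read 2.78 in low drinker 1 against 3.44 in water 3. Of 7 pituitary markers 6 were on the array by name, 3 well above background on all arrays, and 5 were lower in high than in low drinkers at an unadjusted p under 0.05, where 12.2% of all probes were lower. The log2 of their summed intensity was 1.71 to 3.64 in water arrays, 2.80 to 3.24 in low drinkers, -0.08 to 1.76 in early high drinkers and 1.98 to 2.69 in late high drinkers. The part of pituitary tissue in Pomc was not tested.

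The genes most alike to each member were found over the 12 arrays, among 28151 annotated probes, by Pearson's r of the level at the brightest probe. These are descriptions over arrays that share slides, and with so many probes high values are usual. Penk1 was most like Slc6a11, a GABA transporter (r = 0.90, Spearman's rho 0.87), followed by 1810013D10Rik (0.89) and Srebf2, a regulator of cholesterol synthesis (0.86). Pdyn was most like the unnamed transcript AK043497 (r = 0.96, rho 0.95), then Trp53bp1, of DNA repair (0.93), and the growth hormone receptor Ghr (0.92). Pnoc was most like Abcb6 (r = 0.87, rho 0.87), Oprk1 like 4732419C18Rik (r = 0.93, rho 0.92) and Oprl1 like Vcp (r = 0.93, rho 0.64). Oprm1 had the highest values, with Gipc3 (r = 0.99, rho 0.97), Gsdmcl1 (0.98) and Tpte (0.98), which like Oprm1 were highest in low drinker 2, and well above background on 12, 8 and 8 arrays.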

How the data were processed

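The authors deposited the scanner output of 12 arrays, whose signal intensity was background-corrected on a linear scale by Agilent Feature Extraction 10.5.1.1 (per the file headers), with no scaling between arrays; their deposited value table holds the same intensity averaged per probe. Each level is log2 intensity minus log2 of the 75th percentile over 43379 spots, controls left out. As in the study's methods, which name no scaling between arrays, spots were dropped as non-uniform outliers or where signal over noise was below 2, and probes present on no more than 50% of the arrays of either group were not tested. Spots of 1 probe were averaged. All probes were fitted with limma 3.58.1 (R 4.3.3, lmFit and eBayes, Benjamini-Hochberg adjustment). High against low and late against early came from 1 fit of 4 groups. Single probes were also tested by exact 2-sided permutation of arrays, whose smallest p-values are 0.00455, 0.0119 and 0.1. A group counts as not well above background where no array passed the scanner's test. The brightest probe stands for a gene. Pathway genes were named at an unadjusted p under 0.05 or when alone in their list or lowest in p. The values of 1 marker gene are not reported here. Members, lists and tests were chosen with earlier results of these data known. Precision is limited by the number of arrays. The fit was tested on simulated data. Alternatives covered scaling, background correction (normexp with offset 50), filters, the authors' table, blocks for slide, scan day and replicate number, arrays left out in turn, the probe that stands for a gene and the methods' t-test. Python 3.11.15 and matplotlib 3.10.9 drew the figures.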

Additional observations from a re-analysis of the deposited data

Results flagged for a closer look

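The Oprm1 probe A_52_P498441 had its highest alcohol level in low drinker 2, at -3.57 against -4.84 in the next array, low drinker 3. This gap was 0.546 of the range of the 9 alcohol arrays, above the limit for 9 values. Of 12 probes looked at, 1 had such a value, and chance gives about 1 in 20, or 0.6 here. Low drinker 2 was also the array with the highest median over dim probes, and the part of this in the Oprm1 value was not tested.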

How the results depend on the processing

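In alcohol against water 1 member had an unadjusted p under 0.05; this count became 0 with normexp, slide or scan day as a fixed block, the mean of a gene's probes and the methods' t-test, and ran from 0 to 1 with each array left out, being 0 without water 1, water 3, low drinker 1 or low drinker 3. For high against low drinkers the count of 2 was 1 with the mean of a gene's probes and the t-test, 3 without scaling, with no filter on dim spots and with scan day as a block, and 2 to 3 with arrays left out. For late against early it was 1 without scaling and with slide as a fixed block, 3 with the t-test and in a fit of the groups compared alone, and 2 with each array left out. Adjusted, the counts of 0 stayed 0 to 0 for alcohol against water, 0 to 2 for high against low and 0 to 1 for late against early with arrays left out. Scan day as a block gave 3 for high against low: upstream Oprl1 (-0.36, limma adjusted p = 0.0443) and the Oprm1 probes A_51_P118688 (-1.40, adjusted p = 0.0126) and A_52_P498441 (-1.52, adjusted p = 0.0126). That block also put 3714 of all probes under 0.05, where 24 passed without it. The pathway count for alcohol against water, 2, was 1 with quantile normalization, no scaling, normexp, no filter on dim spots, slide as a fixed or random block, scan day or the replicate block, and 0 to 2 with arrays left out. That for late against early, 7, was 4 without scaling, 3 with slide as a fixed block and 3 to 8 with arrays left out, and that for high against low 4 to 7.

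The 4 differences of the upstream Penk1 probe, the upstream Oprl1 probe and Oprm1 A_52_P498441 between drinker groups kept their direction under the 12 alternatives that gave them a value; the mean of a gene's probes gave none for a single probe. Between late and early high drinkers Penk1 ranged from -0.45 to -0.28 (limma adjusted p 0.178 to 0.908; with arrays left out -0.55 to -0.37) and Oprl1 from -0.50 to -0.34 (adjusted p 0.104 to 0.852). Between high and low drinkers Oprl1 ranged from -0.36 to -0.21 and Oprm1 from -1.52 to -0.69.

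Reversed differences were near 0 in most cases. For alcohol against water, slide or scan day as a fixed block, which rests on low drinker 1, gave 0.0642 for upstream Oprl1, -0.353 for Oprm1 A_51_P118688, 0.0377 for Pdyn, 0.0471 for downstream Penk1, -0.0567 and -0.0237 for downstream and upstream Pnoc and 1.33 for Pomc. Slide as a random block gave -0.00456 for downstream Pnoc and 0.301 for Pomc. No scaling gave 0.00180 for Oprk1, and normexp 0.00920 for Oprk1 and 0.0113 for Oprm1 A_51_P100309. For high against low drinkers, no scaling gave 0.0847 for Oprk1, 0.00388 for Pdyn, 0.0616 for downstream Penk1 and 0.0879 for upstream Pnoc. The mean of both Oprl1 probes gave -0.129, and Oprm1 A_51_P100309 had -0.134 with normexp, -0.0854 with slide and -0.0645 with scan day as a block. Slide as a block gave 0.0390 for downstream Penk1 and 0.0776 for Pomc. For late against early, no scaling gave 0.116 for Oprk1, 0.109 for Pdyn, 0.0772 for downstream Penk1, 0.00631 for Pomc and 0.0287 for Gnao1. Slide as a block gave 0.00126 for Oprk1, 0.0526 for Pdyn and -0.0533 for upstream Pnoc, the mean of both Oprl1 probes -0.211, and normexp -0.165 for Oprm1 A_51_P100309.

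With each array left out, alcohol minus water ran from -0.0203 to 0.00690 for Oprk1, -0.133 to 0.0872 for Oprm1 A_51_P100309, -0.0227 to 0.0664 for downstream Pnoc and -0.0245 to 0.0844 for upstream Pnoc. High minus low ran from -0.00644 to 0.158 for downstream Oprl1, -0.0695 to 0.216 for Oprm1 A_51_P100309 and -0.0857 to 0.00233 for upstream Pnoc. Late minus early ran from -0.141 to 0.244 for Oprm1 A_51_P100309, -0.0940 to 0.0173 for Pdyn, -0.0201 to 0.0678 for downstream Pnoc and -0.0345 to 0.102 for upstream Pnoc.

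Over 18 pairs of arrays with the same replicate number, the correlation of deviations from the group means was -0.0893 to 0.183, with 3 over 0.1. Those 3 pairs also shared a slide. Over 36 pairs with different numbers it was -0.182 to 0.171, with 4 over 0.1. Deviations of 3 arrays sum to 0 within a group, so these values cannot settle whether arrays were paired by number. The replicate block changed no member call; late minus early had an adjusted p of 0.385 in limma for upstream Penk1 and upstream Oprl1, and over all probes the adjusted count for high against low went from 24 to 0.

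Scaling set the split of directions over all probes. Of 1789 probes at an unadjusted p under 0.05 between alcohol and water 1246 were higher, with quantile normalization 996 of 1983 and without scaling 1326 of 1635. Between high and low drinkers 1064 of 5006 were higher, against 2790 of 5004 and 3341 of 5144, and between late and early 1373 of 4025, against 1725 of 3724 and 4334 of 5248. The cause of these shifts was not tested. Signal over background limits the 3 Oprm1 probes and Oprd1, and water arrays lie on slide 1 alone.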
